A study of Rattus norvegicus with 2 samples.

Results

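C/D box small nucleolar RNAs were described in the kidneys of F344 rats, an inbred laboratory strain that often develops chronic kidney disease in old age. The members were the rows of the deposited gene table whose name starts with SNORD and whose mean over both diets was at least 1 FPKM (sequenced fragments scaled by transcript length and library size). That gave 87 of 362 SNORD rows, in a table of 29516 gene rows of which 14077 reached the same mean. Rats ate either a diet with 14% soy or a casein control diet, in both cases from 16 to 20 months of age, and each diet is represented by 1 kidney library made from total RNA. Pooling of rats, their sex and the kidney region sampled were not given in the sources used here. It was the mean over both columns that chose the members, so their levels are given as a description. As each diet has a single library, the spread between replicates is unknown and no test across samples was run.

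Small nucleolar RNAs of the C/D box class are short RNAs named after 2 conserved sequence motifs that bind the methyltransferase fibrillarin and its partner proteins. Base pairing with a target RNA, usually ribosomal RNA, places a methyl group on the ribose of a chosen nucleotide, and a few members act in the cleavage of the ribosomal RNA precursor. In mammals most of them are cut from introns of longer host genes, many of which encode ribosomal proteins or translation factors, so a snoRNA and its host messenger RNA come from the same transcript but are degraded separately. Several, among them SNORD48, SNORD72, SNORD95 and SNORD96, serve as reference RNAs in microRNA assays. They carry no poly(A) tail and are shorter than the usual RNA-seq insert, which limits their capture in standard libraries, and the part of this in the values was not tested. No sequences of these RNAs were in the sources used here.

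The SNORD rows scattered widely between the diets in both directions. Of the 87 rows, 28 were higher with soy by 1.5-fold or more and 29 were lower by as much, while 30 lay within 1.5-fold. These counts include 29 rows listed at 0 under 1 diet. Among the 58 rows with both values above 0, 16 were higher and 12 lower. The background over all 14077 rows was 3.43% higher and 8.08% lower, against 32.2% and 33.3% of the SNORD rows. Their median log2((soy + 0.1)/(casein + 0.1)) was 0.13, against 0.01 for all rows, and the middle 50% ran from -1.16 to 1.06, against -0.14 to 0.14. The authors' deposited table calls 0 of the 87 different, against a background of 0.895% called, with a lowest p of 0.0596 and a lowest q of 0.796, both for SNORD50. The summed level of the 87 rows was 3953 FPKM with soy and 3468 FPKM with casein, which is 0.602% and 0.539% of all FPKM in the library.

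The other 275 SNORD rows are accounted for as follows. In 273 of them both columns were 0. These include all 51 SNORD115 and all 35 SNORD116 rows, copies from the imprinted Prader-Willi region that are known for their expression in brain, and 115 of 116 SNORD113 rows, from the imprinted Dlk1-Dio3 region. The remaining 2, just under the limit, were a SNORD30 row on chromosome 3 (0.078 FPKM with soy, 0 with casein) and a SNORD22 row on chromosome 11 (0.021 and 0). Just above the limit came another SNORD22 row on chromosome 3 (0 with soy, 2.42 with casein), SNORD17 (1.21 and 1.66) and SNORD23 (4.81 and 0). The values thus jumped from below 0.1 FPKM to above 1, and the authors' test status was OK for the 87 members and NOTEST for the other 275. No SNORD row is among the 145 rows of the deposited transcript table.

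The library-wide facts that touch these rows are few. The kidney markers chosen as a check were present, from 7.30 FPKM with soy and 8.42 with casein for the podocyte gene Nphs1 to 13000.5 and 8801 for the proximal tubule gene Kap. Of these 8 markers 6 were higher with soy, with a median log2 of 0.43 and summed levels of 18713 FPKM with soy and 13328 with casein, and Lrp2 was past 1.5-fold (24.7 and 15.9 FPKM). All 10 leukocyte markers were at least 1.5-fold lower with soy, against 8.08% of all rows. Their summed levels were 62.6 FPKM with soy and 142 FPKM with casein. The authors' deposited table calls 2 of these 10 different, Ptprc and Tyrobp, and 0 of the 8 kidney markers. The part of either marker list in the SNORD values was not tested. In such bulk kidney RNA, fewer cells of a type and less RNA per cell cannot be told apart.

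The SNORD row with the highest mean FPKM was SNORD37, a guide for the large-subunit ribosomal RNA in human. This row lies inside the Eef2 gene of elongation factor 2. It had 302 FPKM with soy and 191 FPKM with casein. SNORD45, a guide for the small-subunit RNA in human that lies in Rabggtb, had 280 FPKM with soy and 207 with casein. SNORD29, a large-subunit guide, had 226 and 176 FPKM. These 3 rows were higher with soy, SNORD37 by 1.58-fold and the others by less than 1.5-fold.

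SNORD14, known as U14 and needed in yeast for cleavage of the ribosomal RNA precursor, has 3 rows in 1 region of chromosome 8, which the table lists with an uncharacterised gene, D4A4S3_RAT. The highest of them had 168 FPKM with soy and 175 with casein. The second had 120 FPKM with soy and 59.5 with casein, and the third 110 with soy and 67.4 with casein. The SNORD14 row in the region of Rps13 had 9.59 and 17.8 FPKM. Copies of the same RNA thus differed in direction. Fragments that match several such copies can be shared between them, so the values of single copies are uncertain.

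The other rows among the 10 highest means included SNORD35 in LOC100363296, which the table describes as ribosomal protein L13a, with 164 FPKM with soy and 176 FPKM with casein. SNORD22, an orphan with no known methylation target, had 135 FPKM with soy and 121 with casein. SNORD96, which in human guides the 5.8S ribosomal RNA, had 134 and 112 FPKM in the region of Gnb2l1. SNORD36 in RL7A_RAT, the ribosomal protein L7a gene, had 148 FPKM with soy and 38.7 with casein, 3.83-fold higher. SNORD33 in LOC100363296 had 65.2 FPKM with soy and 119 with casein, 1.83-fold lower. Large and small differences stood side by side at the same level of FPKM.

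**Figure D1:**
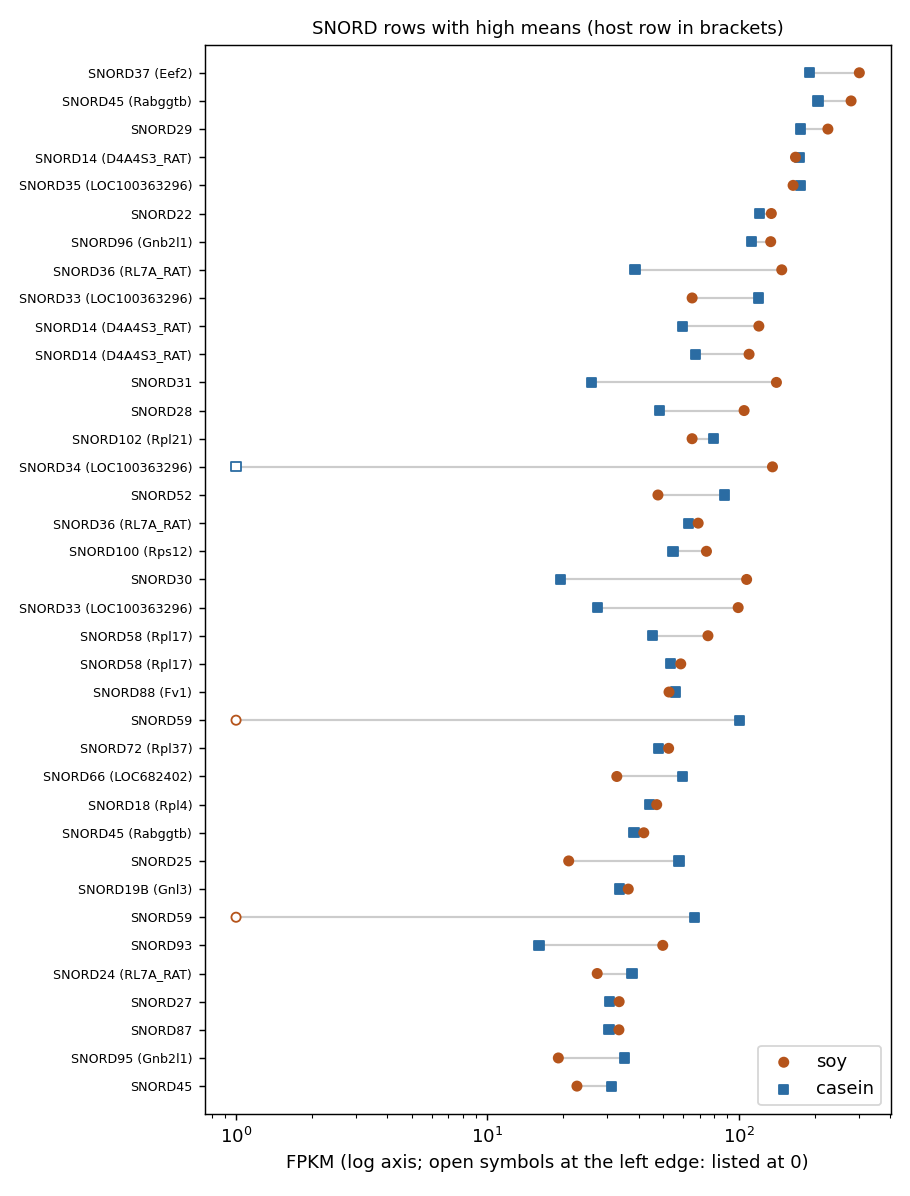
FPKM with soy (circles) and with casein (squares) of 37 of the 40 SNORD rows with the highest means, on a log axis, with the longer gene row of the same region in brackets and 1 library per diet. SNORD37 is at 302 and 191 FPKM, while open symbols at the left edge mark values listed at 0, such as SNORD34 with casein.

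Of the 87 rows, 17 were listed at 0 with soy and 12 at 0 with casein, against a background of 0.696% and 0.781% of all rows. Such values were not particular to SNORD rows. A 0 under 1 diet was listed for 33.3% of them and for 36.5% of the 389 other short RNA rows. An exact 0 can be a failed estimate, so no fold is given for the 29 SNORD rows listed at 0. Listed at 0 with soy were both SNORD59 rows (101 and 66.7 FPKM with casein), a SNORD38 row (67.6) and SNORD50 (48.9), all ribosomal RNA guides in human. They were followed by a SNORD73 row with 35.8 FPKM with casein, SNORD48 with 30.1, SNORD64 with 23.5 and a SNORD63 row with 22.8. SNORD64 is an orphan from the Prader-Willi region.

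Listed at 0 with casein were SNORD34, a large-subunit guide, with 136 FPKM with soy, and SNORD5 in Taf1d with 47.9. SNORD83 had 31.1 FPKM with soy, SNORD105 25.2, SNORD123 20.2, the other SNORD73 row 17.0, SNORD47 14.97 and SNORD19 8.78. The 2 SNORD73 rows lie in the same region, that of Rps3a, and were each listed at 0 under the diet in which the other had its value. Both SNORD62 rows had the same values, 5.796 FPKM with soy and 0 with casein, and both SNORD103 member rows shared 5.41 with soy and 4.95 with casein.

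Values of 0 became fewer as the mean rose. Among the 29 members with the lowest means, 1.21 to 12.6 FPKM, 20 were listed at 0 under 1 diet. In the 29 with middle means, 13.3 to 40.1 FPKM, there were 7, and in the 29 with the highest means, 45.5 to 246 FPKM, there were 2. A row that reaches a mean of 1 through 1 column alone enters the members, so this count follows in part from the choice of members. The interquartile range of log2 was 12.4, 1.02 and 0.98 in the same order. Without the rows listed at 0 it was 0.56 over 9 rows, 0.85 over 22 and 0.88 over 27. Leaving out those rows removes the widest differences, and mostly at low means. These ranges therefore cannot show how the spread changes with the level.

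Rows that are not short RNAs had interquartile ranges of 0.33, 0.21 and 0.23 in the same 3 ranges of mean FPKM, and 13.6%, 4.37% and 4.19% of them were past 1.5-fold. The SNORD shares past 1.5-fold were 82.8%, 58.6% and 55.2%. SNORA rows, the H/ACA box snoRNAs that guide pseudouridylation, fell between, with ranges of 2.44 over 98 rows, 0.59 over 27 and 0.27 over 12. In the highest range 0 of 12 SNORA rows were past 1.5-fold, against 16 of 29 SNORD rows. H/ACA RNAs are longer than C/D RNAs, and the part of length in this difference was not tested.

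**Figure D2:**
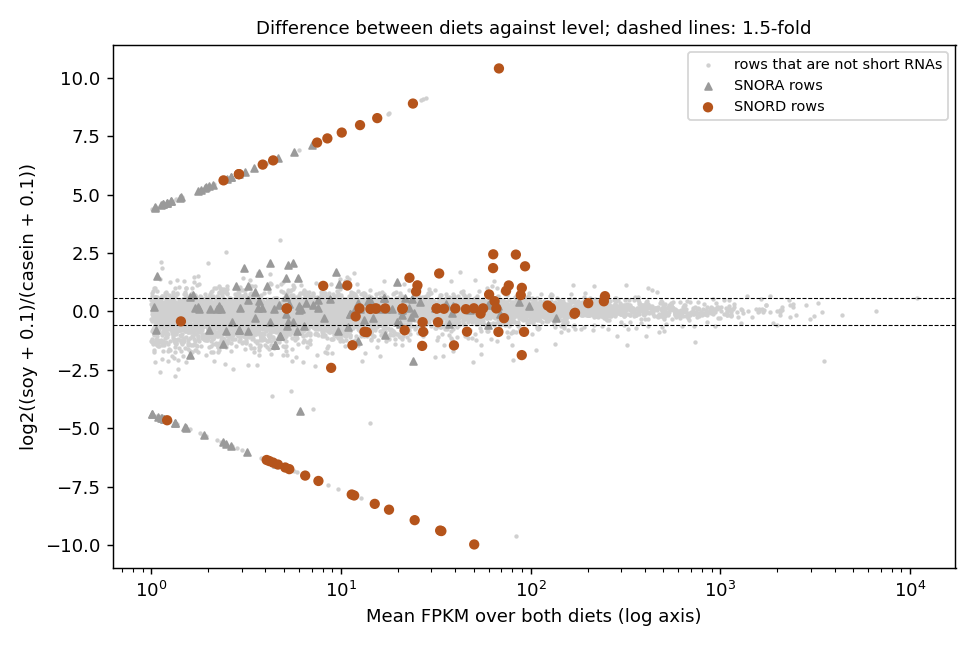
Each point is a gene row with a mean of at least 1 FPKM, placed by its mean over both diets (log axis) and by log2((soy + 0.1)/(casein + 0.1)), 1 library per diet, with dashed lines at 1.5-fold. SNORD rows lie past the lines at means of up to 246 FPKM, and the diagonal arms at top and bottom are rows listed at 0 under 1 diet.

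Over all levels the other short RNA classes were also spread widely. The 156 SNORA rows had a median log2 of 0.13, with 29.5% past 1.5-fold higher and 24.4% past 1.5-fold lower with soy. For 88 spliceosomal U RNA rows the median was also 0.13, with 38.6% higher and 35.2% lower, and for 52 microRNA rows it was 0.13, with 42.3% and 36.5%. In 18 C/D box RNA rows listed under other names, such as U3, U8 and snoU13, it was 0.09, with 6 higher and 6 lower. All 389 short RNA rows other than SNORD had 33.9% higher and 31.9% lower, shares close to those of the SNORD rows.

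The ratios between the diets were not spread evenly. Of the 58 members with both values above 0, 18 had a soy to casein ratio between 1.07 and 1.11. The same ratio was the commonest among the other short RNAs, with a median of 1.09 over 34 rows in the fullest bin, 0.05 wide on the log2 scale. The median log2 of all 87 members, 0.13, is the log2 of this ratio. A further 6 members lay within 2% of 0.5 times that ratio, 4 within 2% of 2 times, 2 within 2% of 1.5 times, 3 within 2% of the quotient of 2 and 3, and 3 within 2% of the quotient of 1 and 3.

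In all, 36 of 58 members (62.1%) lay within 2% of the ratio of 1.09 multiplied by a quotient of whole numbers up to 3. The same held for 36.4% of 247 other short RNA rows and for 11.96% of 12790 rows that are not short RNAs in the same range of means. Among the 27 members with the highest means and both values above 0 it was 40.7%. Fragment numbers per row were not given in the sources used here, and whether small whole numbers of fragments lie behind these ratios was not tested.

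**Figure D3:**
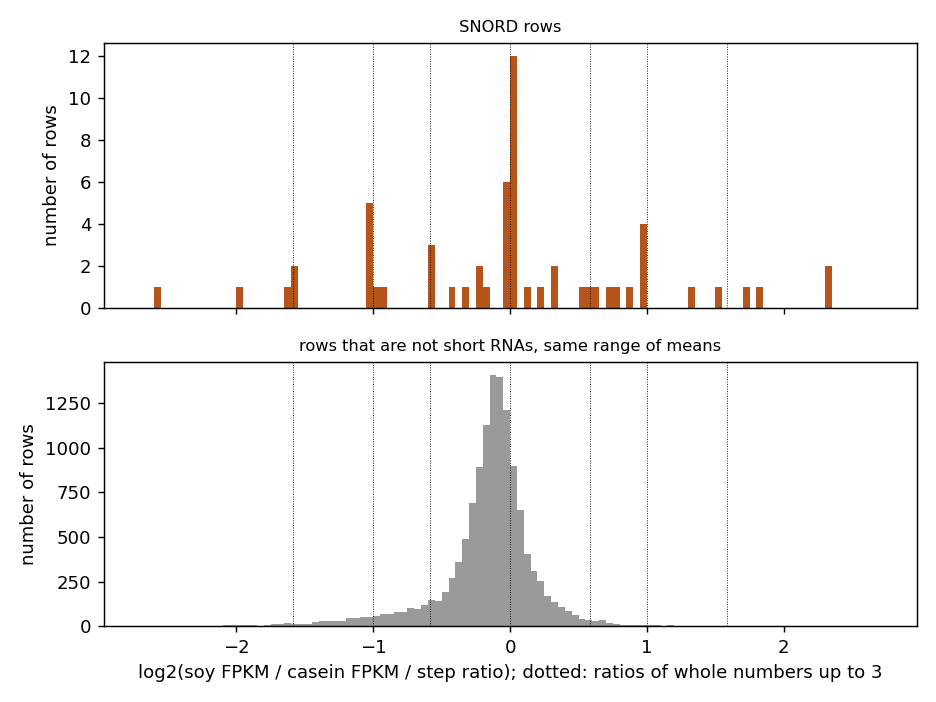
Number of rows by log2 of the soy to casein ratio divided by the commonest short RNA ratio of 1.09, for the 58 SNORD rows with both values above 0 (top) and for 12790 rows that are not short RNAs (bottom). Many SNORD rows, 36 of 58, stand in spikes at the dotted lines, which mark quotients of whole numbers up to 3, and the other rows form a single smooth peak.

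Another regularity appeared in the p-values and the span of each row in bases. In the authors' deposited table, 278 rows carry exactly the same p of 0.164, and all 278 are listed at 0 with soy. A further 230 rows of the authors' deposited table share a p of 0.154, and all are listed at 0 with casein. Among them were 33 and 39 short RNA rows with status OK that share their region with no other row. In these the FPKM value fell as the span grew. With casein it was 30.1 FPKM at 64 bases and 0.137 at 292 bases (Spearman's rho across rows -0.99), and with soy 43.9 at 59 bases and 0.156 at 289 bases (rho -0.99). The rows share a library and the length scaling of FPKM, so rho is a description.

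The 5 SNORD rows with a p of 0.164 in the authors' deposited table followed that line from SNORD48 at 30.1 FPKM and 64 bases, through SNORD64 at 23.5 and 67 bases, SNORD26 at 12.95 and 75 bases and SNORD113 at 8.78 and 83 bases, to SNORD22 at 2.42 and 123 bases. SNORD123 (20.2 FPKM with soy, 70 bases) and SNORD47 (14.97 with soy, 77 bases) had the p of 0.154 in the authors' deposited table. These 7 rows help to define the line, so their place on it is no finding. In the authors' deposited table a p of 0.0914 was shared by 9 short RNA rows listed at 0 with soy, which lay at a median of 2.19 times the line. SNORD50 shared its p of 0.0596 in the authors' deposited table with 4 other such rows, and these 5 had a median of 3.05 times the line, from 2.70 to 3.22. The line is not the lowest level seen, because 3 other shared p-values, in 5, 7 and 11 short RNA rows listed at 0 with casein, went with medians of 0.191, 0.129 and 0.0678 times the line.

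For 23 members that are alone in their region, the span is the row's own and the value can be set against this line. Leaving out the 7 rows that define the line, 16 remained. The higher of their values in the 2 libraries lay between 0.868 and 7.46 times the line in 15 rows, with a median of 3.47 times over all 16. SNORD29 stood at 7.46 times with soy and 5.85 times with casein. SNORD31 stood at 5.73 and 1.11 times, and SNORD30 at 4.98 and 0.974 times. The exception was SNORD22 on chromosome 1, at 53.9 times with soy and 51.0 times with casein over its 126 bases.

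Of these 15 rows, 8 were past 1.5-fold between the diets. SNORD22 on chromosome 1 had a log2 of 0.15, or 135 and 121 FPKM, and as a single row it gives no comparison with the 15. By FPKM alone SNORD22 ranks below SNORD29, whose value is 1.28-fold higher with soy. The line is interpolated between rows of other lengths, and these multiples are not fragment counts. A SNORD93 row at 2.74 FPKM with soy lay at 0.142 times the line, and a second SNORD93 row at the same span of 71 bases had 49.8 FPKM with soy and 16.0 with casein.

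**Figure D4:**
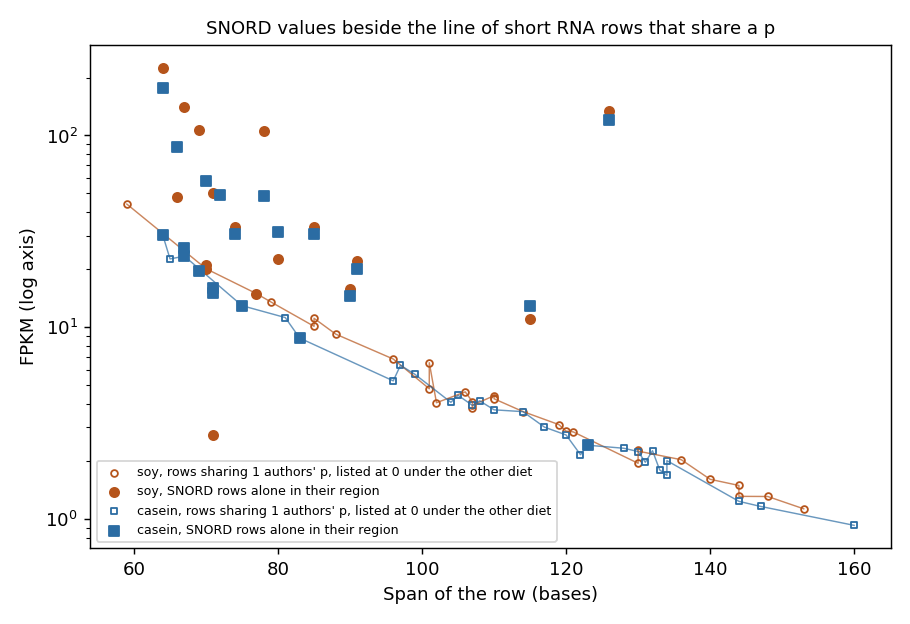
FPKM (log axis) against the span of a row in bases, up to 160 bases, with soy (circles) and with casein (squares). Open symbols joined by lines are short RNA rows that share the p of 0.154 or 0.164 in the authors' deposited table and are listed at 0 under the other diet, and filled symbols are SNORD rows alone in their region, with SNORD22 at 126 bases far above the lines.

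The longest run of SNORD rows without a longer row spans bases 211390955 to 211393275 of chromosome 1, as the deposited table counts them. Its genome build was not given in the sources used here. This run holds 8 rows in 2321 bases, in the order SNORD25, SNORD26, SNORD27, SNORD28, SNORD29, SNORD30, SNORD31 and SNORD22, which in human and mouse come from introns of the noncoding host gene SNHG1. In the table no longer row shares their regions. SNORD25 had 21.0 FPKM with soy and 57.8 with casein, 2.74-fold lower, and SNORD26 had 0 and 12.95. SNORD27 had 33.4 and 30.6 FPKM. All members after SNORD27 in this order were higher with soy, SNORD29 and SNORD22 by less than 1.5-fold.

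SNORD28 had 105 FPKM with soy and 48.4 with casein, 2.17-fold higher. SNORD30 had 107 FPKM with soy and 19.6 with casein, 5.48-fold higher, and SNORD31 had 141 and 25.97, 5.43-fold higher, the highest soy over casein ratios among members with both values above 0. In the authors' deposited table their p-values were 0.138 and 0.140. The summed level of the 8 rows was 769 FPKM with soy and 493 FPKM with casein. RNAs that in human are cut from a common precursor thus had log2 values from -1.45 to 2.45, apart from SNORD26.

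Host sharing could be read from the table because overlapping genes are listed with a common region. Of the 87 members, 64 shared their region with a longer gene row, in 38 regions, and 23 did not. In 34 regions, with 58 members, there was a single longer row, called the host here although strand and intron position were not known. Of these 34 hosts, 13 are described as ribosomal proteins, and others encode translation factors or nucleolar proteins, such as Eef2, Nop58 and Gnl3. The lowest mean level was 1.05 FPKM, for Rps13, and the median over the hosts was 51.5 FPKM.

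All 34 hosts lay within 1.5-fold between the diets, with a median log2 of -0.04 and a range from -0.31 for Rps12 to 0.40 for RL7A_RAT. So did 12294 of all 13601 rows that are not short RNAs, so the count is not particular to hosts. Of the 58 members inside them, 36 were past 1.5-fold, and 53 differed more between the diets than their host did. Past 1.5-fold were also 65.5% of all 87 SNORD rows and 65.8% of the other short RNA rows, against 9.61% of rows that are not short RNAs. The counts of 36 and 53 include members listed at 0 with soy or with casein, such as SNORD34. Such a value can be a failed estimate, and the log2 of these members depends on the small value added to each FPKM. Eef2 had 598 FPKM with soy and 617 with casein beside the 1.58-fold higher SNORD37. Rps3 had 505 FPKM with soy and 553 with casein, while its SNORD15 row had 11.03 and 5.10 FPKM, 2.16-fold higher. The host rows thus differed less between the diets than most of their snoRNA rows. Short RNA rows in general differed more than other rows, so this is not particular to hosts and their members.

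Members of the same region often went apart. In the 18 regions with 2 or more members and a longer row, which hold 44 members, the range of log2 within a region had a median of 1.39. Members listed at 0 with soy or with casein were included in these ranges. With a single host there were 16 such regions with 40 members, and in 10 of them members of both signs were found. The region of Rpl4, on chromosome 8 from 68366791 to 68371925, held the most members, 5. Its 3 SNORD18 rows had 47.1, 21.9 and 14.8 FPKM with soy and, in the same order, 44.0, 20.2 and 13.8 with casein, all within 1.5-fold. Of its SNORD16 rows, 1 had 13.1 and 11.9 FPKM and the other 6.12 with soy and 16.9 with casein, while Rpl4 itself had 508 and 523.

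The region of LOC100363296 (ribosomal protein L13a), on chromosome 1 from 95600814 to 95603505, held 4 members. In rodent cells the SNORD32 to SNORD35 RNAs of this gene are known as mediators of lipid-induced oxidative stress. SNORD33 had 65.2 FPKM with soy and 119 with casein in 1 row, and 99.4 and 27.3 in the other. SNORD34 had 136 and 0, and SNORD35 164 and 176. The host had 434 FPKM with soy and 499 with casein. The 4 rows summed to 465 FPKM with soy and 323 with casein.

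In RL7A_RAT, the host with the highest log2 (84.4 FPKM with soy, 63.9 with casein), the SNORD36 rows had 148 and 38.7 FPKM, and 68.9 and 62.9. SNORD24, a large-subunit guide in the same region, had 27.3 with soy and 37.6 with casein. In Gnb2l1 (431 and 506 FPKM), SNORD95 had 19.1 with soy and 35.1 with casein, 1.83-fold lower, beside SNORD96 with 134 and 112.

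In the other regions with several members, the members lay on both sides of 0 in some and on the same side in others. In Hspa9, 1 SNORD63 row had 17.9 FPKM with soy and 16.3 with casein and the other 0 and 22.8. In Nop58, which itself encodes a C/D box core protein, SNORD70 had 9.38 and 17.2 FPKM and SNORD11 had 0 and 10.2. SNORD58 in Rpl17 had 75.4 and 45.4 FPKM, and 58.7 and 53.5. SNORD88 in Fv1 had 52.8 and 56.2, and 14.8 and 6.78. SNORD100 in Rps12 had 74.3 FPKM with soy and 54.7 with casein, beside SNORD101 with 0 and 15.2. In Gnl3, SNORD19B had 36.3 and 33.5 and SNORD19 had 8.78 and 0.

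**Figure D5:**
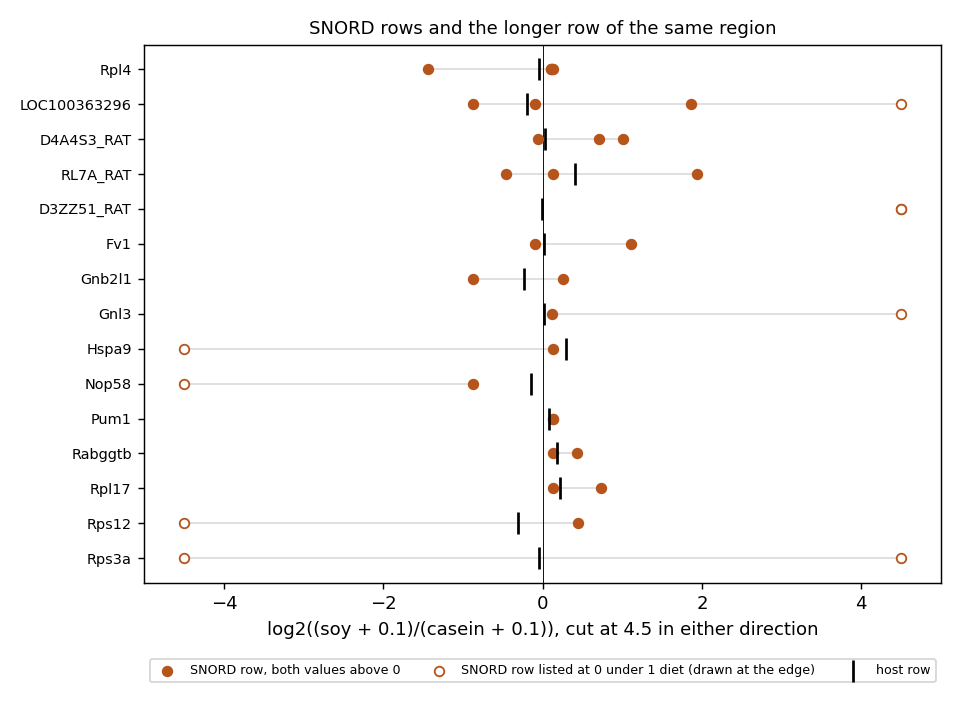
log2((soy + 0.1)/(casein + 0.1)) of the SNORD rows (circles) and of the host row (black bar) in 15 of the 16 regions that hold 2 or more members and a single longer row, 1 library per diet. The host bars stay between -0.31 and 0.40 while members reach both sides of 0 in 9 of the regions drawn, with rows listed at 0 under 1 diet drawn as open circles at 4.5 in either direction.

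In a pair of regions with 2 or more members, several longer rows overlap. Both SNORD91 rows, on chromosome 10, were higher with soy, at 32.1 FPKM with soy and 17.7 with casein, and 33.6 and 12.3. The SNORD59 rows, on chromosome 7, were both listed at 0 with soy. Rows of a name lay on the same side in these cases, as they did for SNORD62 and SNORD103.

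The remaining rows of repeated names varied less. SNORD45 had 41.9 FPKM with soy and 38.2 with casein in its second Rabggtb row, and 22.7 and 31.2 in a row of its own next to that gene. SNORD88 had 22.2 FPKM with soy and 20.2 with casein, and 15.8 and 14.5, in its lone rows. These were all within 1.5-fold.

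Of the members not yet described, SNORD102 in Rpl21 had 65.2 FPKM with soy and 79.5 with casein, SNORD72 in Rpl37 52.6 and 47.8, and SNORD66 in LOC682402 32.7 and 59.6. SNORD87 had 33.3 and 30.5 FPKM, SNORD125 16.1 and 14.7, and SNORD89 11.1 and 12.8. Among them SNORD66 was past 1.5-fold. Listed at 0 with soy were also SNORD124 (10.7 FPKM with casein), SNORD60 (9.30), SNORD71 (8.39) and SNORD127 (8.12), and SNORD21 was listed at 0 with casein (7.74 with soy).

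Among members with both values above 0, the next highest log2 values belonged to SNORD36 (1.94), SNORD33 (1.86) and SNORD93 (1.63, 49.8 FPKM with soy and 16.0 with casein). After them came SNORD91 (1.45, 33.6 and 12.3), then SNORD38, SNORD28 and SNORD88 (1.12 each) and SNORD15 (1.098, 11.03 and 5.10). Among the lowest were the other SNORD93 row (-2.41, 2.74 FPKM with soy and 15.02 with casein) and SNORD121A (-1.47, 14.1 and 39.4). SNORD25 and SNORD16 followed at -1.45. Then came SNORD14 in Rps13 (-0.88), SNORD52 (-0.88, 47.7 and 87.5), SNORD33, SNORD95 and SNORD70 (-0.87 each). SNORD93, SNORD33 and SNORD14 each have rows among the lowest and also rows that were higher with soy.

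Grouped by the target known in human, most member rows are guides for the small-subunit or the large-subunit ribosomal RNA. Both of these groups held rows past 1.5-fold higher with soy and rows past 1.5-fold lower. The 5 rows labelled orphan, with no known methylation target, were SNORD64, SNORD101, SNORD113 and both SNORD22 member rows. All but SNORD22 on chromosome 1, so 4 of 5, were listed at 0 with soy, against 17 of all 87 members. The labels were set after the values had been seen, so this count is only a description. SNORD94, which guides methylation of the spliceosomal U6 RNA, had 15.8 FPKM with soy and 27.6 with casein. For 14 rows no target was assigned. Of these, 2 were listed at 0 with soy and 4 at 0 with casein, and 6 were past 1.5-fold higher and 2 lower with soy.

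The genes of snoRNA assembly and ribosome production differed little between the diets. All 4 core proteins of the C/D box particle were lower with soy but within 1.5-fold. Fbl, the methyltransferase fibrillarin, had 42.4 FPKM with soy and 48.1 with casein, and Nop58 17.4 and 19.2. Nop56 had 4.15 FPKM with soy and 4.42 with casein, and the RNA-binding Nhp2l1 had 69.5 and 75.4. The median log2 of these 4 was -0.13, and that of 9 assembly factors, such as the ATPases Ruvbl1 (12.8 and 14.2) and Ruvbl2 (16.6 and 17.8), was -0.10, against 0.01 for all rows.

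Of the assembly factors 0 of 9 were past 1.5-fold, and so were 0 of 5 H/ACA proteins (median 0.04) and 0 of 16 ribosomal RNA processing genes (0.02). The 12 RNA polymerase I genes (-0.04) and the 10 genes of intron debranching and trimming (0.01) held 0 as well. Of all 14077 rows 3.43% were higher and 8.08% lower past 1.5-fold. Lists this small, the 4 core proteins included, would hold few such rows at those shares, so the counts of 0 are only a description. Dbr1, the enzyme that opens intron lariats, had 11.6 FPKM with soy and 11.1 with casein. Among 38 snoRNA host genes listed by name, 1 was past 1.5-fold, Snhg11, with 6.46 FPKM with soy and 3.84 with casein, and the median was -0.04.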

How the data were processed

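Kidney RNA of 1 soy and 1 casein library was analysed from the authors' deposited gene table, with 29516 rows and an FPKM value per diet, and from the deposited table of 145 transcripts. Bowtie, TopHat and Cufflinks appear in the submitters' processing notes, with no version. Genome build, annotation release and fragments per row were not given in the sources used here. Both the p-value and q-value columns hold the authors' own values, per the file headers. Libraries were made from 5 µg of total RNA with TruSeq reagents, per the labels' protocols. FPKM summed to 656248 with soy and 643145 with casein, and the read depth is unknown.

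The value compared was log2((soy + 0.1)/(casein + 0.1)), which understates differences of low rows. Folds are ratios of the FPKM values, and past 1.5-fold refers to the log2 value. The table lists overlapping genes with a common merged region, so the planned requirement that a host be at least 3 times as long could not be applied, and sharing a region with a row that is not a short RNA was used. Starts are printed 1 higher than listed, because end minus start equalled the RefSeq length in 10 of 12 lone SNORD rows with a RefSeq gene of the same symbol (assembly GRCr8, used for names and lengths only).

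The step ratio is the median of the fullest 0.05-wide log2 bin among short RNA rows other than SNORD. The line that lone rows were set against joins, on log scales, the values of lone short RNA rows with status OK that share the commonest p. Steps, target classes and the group of C/D box RNAs under other names were chosen after the values had been seen, and the members and lists with earlier results of these data known. Rows named are the 10 highest means, the 10 highest and 10 lowest log2 values with both columns above 0, the 8 highest listed at 0 under each diet, those next to the limit of 1 FPKM, those sharing a host or a name, and list genes. A few rows that this rule names are not reported here.

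Alternatives were pseudocounts of 0.01 and 1, a mean of at least 5 or no limit, centring, a 2-fold limit, rows of a name summed, rows listed at 0 left out, and any overlap of regions. The calculation of counts and ratios was checked on simulated data without values of 0. That check does not show how often ratios of real rows fall near the steps by chance. The tools were pandas 2.3.3 and numpy 2.4.6 in Python 3.11.15, with matplotlib 3.10.9 for figures.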

Additional observations from a re-analysis of the deposited data

How the results depend on the processing

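No paired analysis was possible because each diet has 1 library, and for the same reason no library could be left out. The counts of 28 higher and 29 lower SNORD rows held within 1.5 times under each alternative but the removal of rows listed at 0, which left 16 and 12, with an interquartile range of 1.08 and a summed soy to casein ratio of 1.22 in place of 2.22 and 1.14. The median log2 was 0.12 with a pseudocount of 1, 0.12 after centring on all rows and 0.12 with rows of a name summed. Centred on the step ratio of short RNAs, an alternative chosen after seeing the data, it was -0.00046 and so changed sign. The cause of these shifts was not tested. The interquartile range was 2.23 with a pseudocount of 0.01, 2.08 with 1, 1.74 where means of 5 FPKM or more were required, 1.90 without a limit and 2.09 with names summed. With means of 5 FPKM or more required, 7 rows were listed at 0 with casein, and the ranges for low, middle and high means were 7.78, 1.004 and 1.06. Without a limit they were 10.9 for low and 0.928 for high means. With the region required to be at least 3 times as long, as first planned but run here as an alternative after seeing the data, 0 members had a host, since the regions are merged. All 87 single members stayed on their side of 1.5-fold with other pseudocounts and with centring on all rows. These settings could hardly move them, because centring shifted the log2 values by only 0.0126. Rows listed at 0 lie far past 1.5-fold with each of these pseudocounts. Depth is unknown, so the counting error of single SNORD rows cannot be given.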
